A study of Mus musculus with 20 samples.

Results

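The 8-cell mouse embryo was compared with 4 other stages of early development, the oocyte, the 1-cell embryo, the 2-cell embryo and the blastocyst. The 8-cell group held the 4 arrays whose titles name that stage, of 20 in all, and each other stage also had 4 arrays. Total RNA was amplified by 2 rounds of in vitro transcription and hybridized to the Affymetrix MOE430A array, which carries 22626 probe sets besides its controls. The labels give no strain, genotype, treatment, age or number of embryos per sample for any stage, and do not say whether the 4 arrays of a stage came from separate collections. The p-values therefore cover only the variation among these arrays, part or all of which may be technical.

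In the mouse, the embryo takes over from the RNA stored in the oocyte around the 2-cell stage, when its own genome is switched on. At the 8-cell stage the blastomeres flatten against each other and become polarized, and cells soon begin to divide into outer trophectoderm precursors and inner cells, a choice governed by the Hippo pathway. The blastocyst that follows is a fluid-filled vesicle of trophectoderm around an inner cell mass that yields the epiblast and the primitive endoderm.

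The values are probe-set intensities on an arbitrary linear scale that the authors set to a common trimmed mean on every array. They are relative to the other transcripts on the array and not amounts per embryo, and fewer cells of a type cannot be told apart from less RNA per cell. Differences are given in log2(intensity + 12.15), where the added constant is a fraction of the pooled median intensity of 48.6, so folds of dim genes are understated. The 8-cell arrays had median intensities of 42.6 to 58.1 and correlated with each other at 0.943 to 0.952 on the log2 scale, against a mean of 0.874 with blastocyst arrays, 0.804 with 2-cell, 0.690 with oocyte and 0.614 with 1-cell arrays. These correlations are across probe sets, which are not independent replicates.

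Control probe sets were compared between the stages as well. The hybridization control CreX, a bacteriophage transcript of the array maker's spike set, read 9135 to 17766 at its 3′ probe set in 8-cell arrays and 3062 to 13466 in the others, which overlap. Its mean was 12534 at the 8-cell stage and 5045 to 8994 at the other stages. The ratio of the 3′ to the 5′ probe set of Gapdh, a measure of how far amplification reached along the transcript, was 0.777 to 1.86 in 8-cell arrays and 2.82 to 8.31 in all others, with no overlap. The same ratio did not stand apart for the other 2 transcripts that have one: it was 3.46 to 3.90 in 8-cell arrays and 1.52 to 6.01 elsewhere for Actb, and 3.43 to 7.41 against 0.746 to 18.9 for Tfrc. The probe set for the B2 repeat read 13512 to 21108 in 8-cell arrays and 5379 to 14089 elsewhere. Their part in the results below was not tested. Scaling every array to its hybridization controls in place of the trimmed mean moved the median difference of all probe sets, 8-cell minus the mean of the other stages, from 0.11 to −0.75, so directions given below are relative to the rest of the array.

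**Figure D1:**
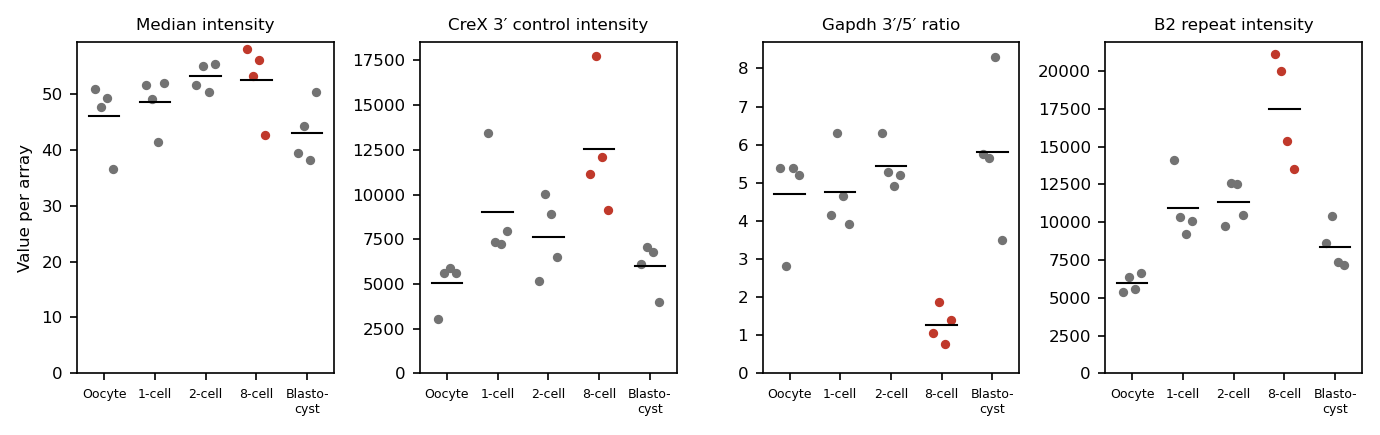
Array-level measures by stage, 1 point per array with 4 arrays per stage: median intensity, CreX 3′ intensity, the Gapdh 3′/5′ ratio and the B2 repeat intensity, the last 3 being control probe sets. The 8-cell Gapdh ratios, 0.777 to 1.86, lie below all 16 others.

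Markers of other cell types were also read in every stage, and their part in the results was not tested. Ovgp1, the oviductal glycoprotein, read 193.5, 3105.4, 113.4 and 46.5 in the 4 8-cell arrays, so that the second array stood far above the rest. It read 219.6 to 764.6 in the 2-cell arrays, above the other 3 8-cell arrays, and at most 111.6 at the remaining stages. The 19 listed oviduct and blood markers summed to 1080, 3751, 1186 and 539 in the 4 8-cell arrays. They summed to 791 to 1355 in the 2-cell arrays and 378 to 694 at the remaining stages. The 18 cumulus and granulosa markers summed to 6142.5 to 8173.0 in the 8-cell arrays. They summed to 3582.4 to 4598.5 in the blastocyst arrays and 532.0 to 1633.5 at the 3 earlier stages. Without Gja1, a gap junction gene that embryos also express, the 8-cell sums were 938.4, 734.6, 1169.4 and 542.6. Sums without Gja1 were not taken at the other stages. Hsd3b1 of this list read 342.8 in the third 8-cell array and 20.7 to 46.8 in the other 3. The 16 sperm markers summed to 474 to 708 in the 8-cell arrays, 536.2 to 675.5 in the blastocyst arrays and 819 to 1473 at the 3 earlier stages. Odf2 alone, 1 of these markers, read 50.4 to 86.6 in the 8-cell arrays and 185.0 to 872.4 at the other stages (median 688.65). Of the cumulus and granulosa markers 1, Gja1, was called higher at the 8-cell stage. Of the oviduct and blood markers 3 were, Dnah5, S100a9 and Vim. Of the sperm markers Tssk1 and Tnp2 were called higher and Ldhc and Odf2 lower. Over all genes the shares were 25.5% higher and 23.9% lower. In the 8-cell arrays Tnp2 read 3.5 to 8.4, S100a9 13.8 to 34.2 and Dnah5 26.1 to 48.7, against a pooled median intensity of 48.6. The other markers called higher were brighter in some or all 8-cell arrays. Tssk1 read 61.9 to 87.2 there and 4.7 to 95.5 at the other stages. Vim read 34.5, 40.6, 202.3 and 20.1 in the 4 8-cell arrays and at most 64.0 at the other stages. Gja1 read 5599.9 to 7003.6 in the 8-cell arrays and at most 4169.0 at the other stages. Leaving out the second and the third 8-cell arrays, a pair chosen after seeing the data, gave 399 peaks in place of 627. It gave 505 dips in place of 677, in both cases from fewer samples. Leaving out 1 array at a time, of any stage, gave 503 to 663 peaks and 585 to 687 dips.

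Against the mean of the other stages, each weighted equally, 5875 of 22626 probe sets (26.0%) were higher and 4783 (21.1%) lower at an adjusted p under 0.05 in limma, which is 55.1% higher among those called. With the arrays scaled to the hybridization controls, 1333 were higher and 13136 lower, which is 9.21% higher. A probe set was called a peak when the 8-cell stage was above every other stage, judged by the largest of the 4 pairwise p-values, and a dip when it was below every other stage. There were 627 peaks (2.77%) and 677 dips (2.99%). Against single stages, 26.6% of probe sets were higher and 22.2% lower than in the oocyte, 25.2% and 23.7% than in the 1-cell embryo, 18.8% and 19.5% than in the 2-cell embryo, and 20.3% and 15.0% than in the blastocyst. All 4 8-cell values lay above the 16 others in 568 of the peaks, where 4.02% of all probe sets had that order, and below them in 577 of the dips (3.19%). The gap to the nearest other stage had a median of 1.00 for peaks and −1.08 for dips, and was at least 2 in size for 34 and 51.

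The nearest stage to a peak was most often the blastocyst (55.2%), then the 2-cell embryo (35.1%), the 1-cell embryo (5.26%) and the oocyte (4.47%). For dips the order was the blastocyst (58.1%), the 2-cell embryo (26.7%), the oocyte (10.2%) and the 1-cell embryo (5.02%). Most probe sets that were higher at the 8-cell stage were thus not peaks. Of the 5875, 25.8% were instead above the oocyte, 1-cell and 2-cell stages and not called above the blastocyst, a pattern of 7.07% of all probe sets, and 10.7% were peaks. Of the 4783 lower ones 39.7% had the mirrored pattern, which 8.51% of all probe sets had, and 14.2% were dips. Under the hybridization control scaling 39 of the 627 peaks were still called. All 677 dips were too, but that scaling lowers the 8-cell values against the others as a whole, so it could not have put the dips to the test.

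**Figure D2:**
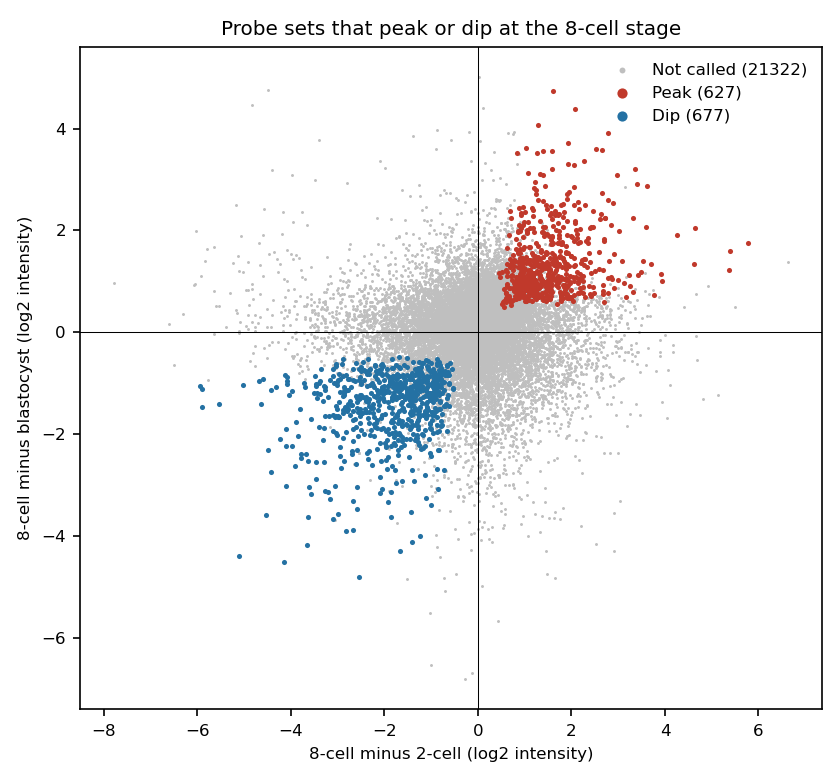
Each point is 1 of 22626 probe sets, with its 8-cell mean minus the 2-cell mean on the x axis and minus the blastocyst mean on the y axis, both in log2(intensity + 12.15). The 627 peaks (red) lie in the upper right and the 677 dips (blue) in the lower left, and the 21322 others are grey.

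The clearest peak was Cited1, a transcriptional co-activator that binds CBP and p300. Its intensities in the 4 8-cell arrays were 258.7, 317.3, 329.5 and 281.7, and the 16 others ran from 2.3 to 54.7 with a median of 8.1. The gap to the 2-cell mean was 2.98 ± 0.34 (SE), or 7.88-fold (adjusted p = 1.88e-06). The largest peaks, dips, rises and falls were picked among genes whose 8-cell values did not overlap the 16 others. Their lack of overlap is therefore no separate result. Gulo, which makes the last step of vitamin C synthesis in mice, read 1541.1, 1187.8, 1327.7 and 1857.9 against 46.9 to 237 elsewhere. That is 1479 ± 292 (SD, n = 4) at the 8-cell stage and 193 ± 41.3 in the blastocyst, the nearest stage (gap 2.87 ± 0.21, adjusted p = 1.86e-09). Foxa1, a forkhead factor known from endoderm, read 295, 331.4, 335.8 and 443.8 against 3.9 to 73.2. All 4 of its 8-cell values were at least 4 times the highest of the others.

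Tfrc, the transferrin receptor that brings iron into cells, rose from 76.9 ± 16.4 in the oocyte to 782 ± 153 at the 2-cell stage and 3766 ± 464 at the 8-cell stage, and was 360 ± 90.0 in the blastocyst. Its 8-cell arrays read 3405.6, 4376.6, 3405.5 and 3876.6, all above the highest other value of 1003.3 (gap 2.26 ± 0.19, adjusted p = 1.48e-08). Tbx3, a T-box factor of the pluripotency network, read 924.5, 1056.8, 970.3 and 1397.3, and the others 46.3 to 268.7. Arg1, the urea cycle arginase, read 320.4, 226.4, 268.5 and 496.5 and was 3.42 ± 0.737 in the blastocyst, so this transcript was near the bottom of the scale on both sides of the 2-cell and 8-cell stages. Ctsz, a lysosomal cathepsin, read 629.8, 604, 561.1 and 1167, with the fourth array highest.

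The other 5 of the 12 largest peaks were Cnmd (gap 2.46), Gabrd, a GABA receptor subunit (2.38), Tsr2, a ribosome maturation factor (2.24), Nt5c3b, a nucleotidase (2.24), and Timm8a1, a chaperone of the mitochondrial intermembrane space (2.23). Of the 12, 6 had more than 1 probe set, and Tbx3, Tfrc and Tsr2 each had one not called a peak. Among 61 peaks named here, 37 were still called after quantile normalization and after median centring, and 11 of these also after scaling to the hybridization controls. Those 11 were Cited1, Gulo, Foxa1, Gabrd, Tfrc, Tsr2, Timm8a1, Tbx3, Arg1, Timd2 and Pdxk.

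**Figure D3:**
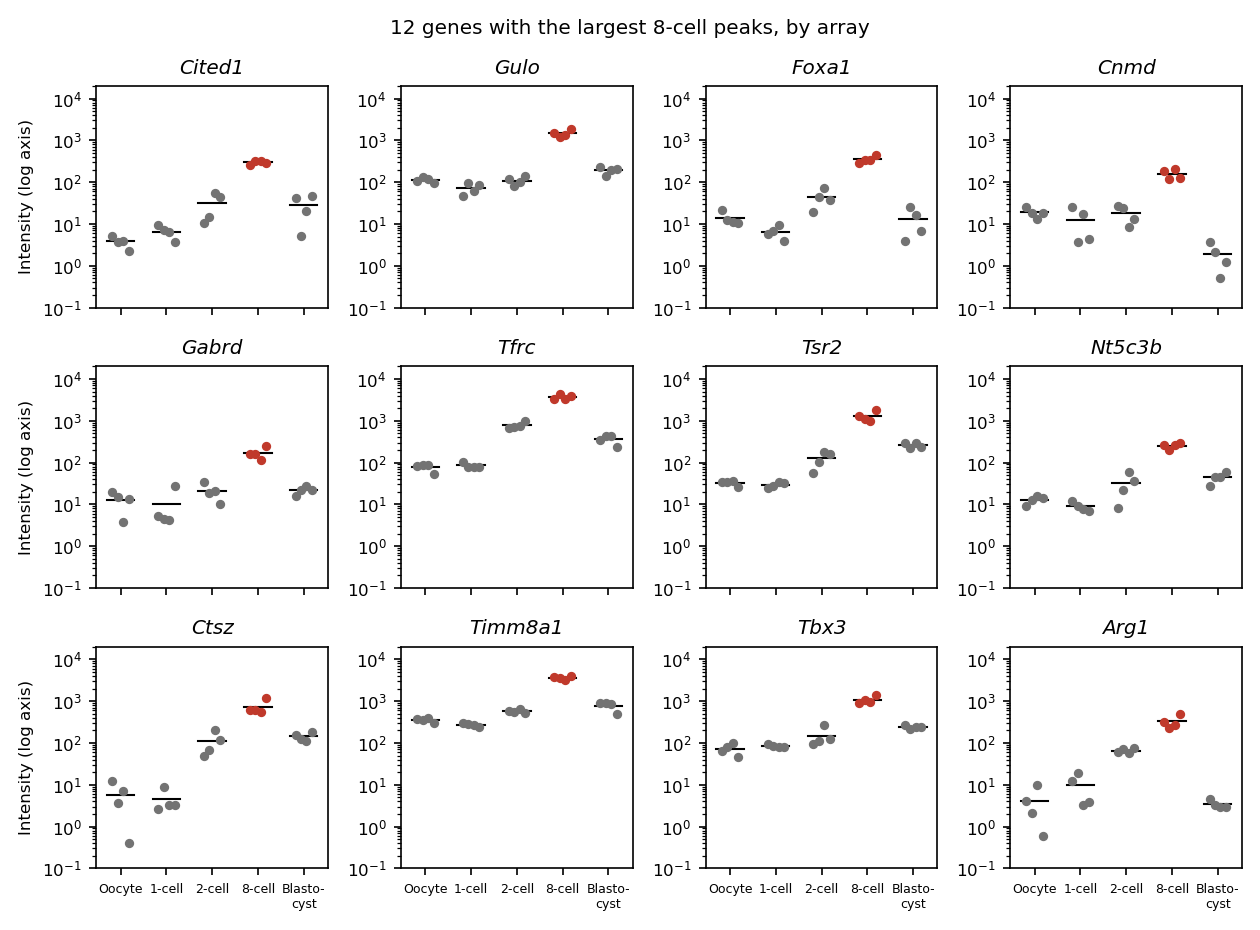
Intensity on a log axis for the 12 genes with the largest peaks, 1 point per array and 4 arrays per stage, with a line at the mean of 4. All 4 8-cell points lie above the 16 others in each gene, which the choice of genes required.

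The largest rises against the mean of the other stages were of genes that start near the bottom of the scale in the oocyte. Bhmt, which remethylates homocysteine with betaine, rose by 6.24 ± 0.24 (adjusted p = 3.99e-16): its 8-cell arrays read 8710.5, 8872.2, 8361 and 8189.3. Its blastocyst mean was 2644 ± 912, and its oocyte mean 10.5 ± 6.93. Timd2, a receptor for ferritin in mice, read 6887.1, 6486.2, 5954.5 and 5148.6, and 1483 ± 351 at the 2-cell stage, the nearest. Pdxk, pyridoxal kinase, rose by 5.78 and Psat1, of serine synthesis, by 4.30, and both were peaks.

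Bach1, a haem-binding repressor, rose by 4.68, Pramel7, of a family tied to ground-state pluripotency, by 4.59, Vnn1, a pantetheinase, by 4.55, and Nme2, a nucleoside diphosphate kinase, by 4.46. These 4 were peaks too, with gaps of 1.77, 1.05, 1.22 and 1.04. Nme2 and Pramel7 were not called after quantile normalization, and their gaps turned to −0.07 and −0.06 after scaling to the hybridization controls. Spic, an Ets-family factor, rose by 4.29 and had a gap of 1.27 ± 0.32 (adjusted p = 0.0134). The peak of Spic was lost without the first 2-cell array (adjusted p = 0.0610) or the first 8-cell array (0.0606), and under quantile normalization (0.0634). Crxos, a homeobox gene, rose by 5.13 but was not called a peak, with 10878 ± 1949 at the 8-cell stage and 5951 ± 835 in the blastocyst (adjusted p = 0.0689).

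The deepest dip was Lrrfip1, whose protein binds nucleic acids. It read 35.3, 101.4, 71.2 and 88.8 in the 8-cell arrays and 1443.2 to 5651.5 in the 16 others. It was 1728 ± 253 in the blastocyst, the nearest stage, 21.0-fold above the 8-cell mean (gap −4.40 ± 0.22, adjusted p = 8.77e-12). Htra1, a secreted serine protease, read 6.6, 2.9, 6.8 and 5.3 against 216 to 566.5, and so was high before and after the 8-cell stage. Errfi1, an inhibitor of the EGF receptor, read 114.3, 117, 91.2 and 116.7 against 883.7 to 2143.2 (gap −2.93 ± 0.16).

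Laptm4b, a lysosomal membrane protein, read 235.4, 321.6, 375.8 and 419.1 against 1506.7 to 12999.3. Pkm, pyruvate kinase of muscle and embryo, read 5.7, 16.4, 31.8 and 25.3 against 110.1 to 683. Neither gene's 8-cell values reached the lowest other array, which the choice of genes required. The rest of the 12 deepest dips were Fut8, the core fucosyltransferase (gap −3.11), Adk, adenosine kinase (−3.04), Fndc3a (−3.01), Slc25a13, the mitochondrial aspartate-glutamate carrier (−2.94), Myo5b, a motor of recycling endosomes (−2.87), Nme7 (−2.66) and Ryk, a Wnt co-receptor (−2.66). Adk and Lrrfip1 each had another probe set not called a dip.

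**Figure D4:**
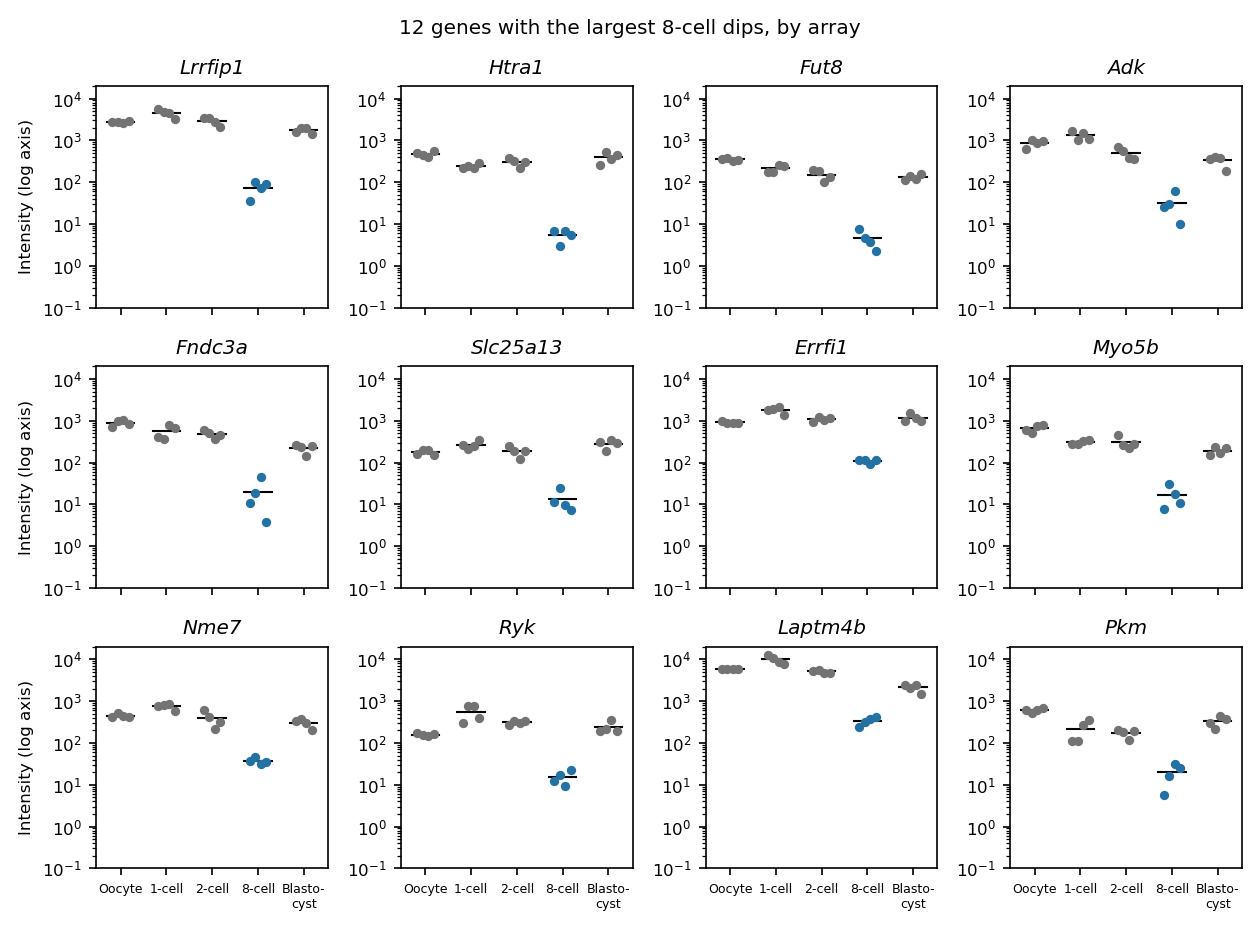
Intensity on a log axis for the 12 genes with the deepest dips, 1 point per array and 4 arrays per stage, with a line at the mean of 4. All 4 8-cell points lie below the 16 others in each gene, which the choice of genes required.

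Against the mean of the other stages, Glrx, a glutaredoxin, fell by 5.07 on the log2 scale, with 19, 4.5, 8.5 and 5.5 in the 8-cell arrays and 83.3 or more in every other. Mapre2, a microtubule end-binding protein, fell by 4.63, Angel2 by 4.49, Smim14 by 4.17 and Adgra3, an adhesion receptor, by 3.95. All of these were also dips. Of 45 dips examined, Dnmt1 and Ndufab1 were lost under quantile normalization. The hybridization control scaling lowers the 8-cell values against the others, so dips kept there are no sign of stability. Median centring lowers them against the mean of the others, as the median difference of all probe sets went from 0.11 to −0.001. Some gaps grew under median centring, as for Lrrfip1 (−4.40 to −4.62), and some shrank, as for Pkm (−2.59 to −2.57). Of the 677 dips, 645 were kept there.

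Genes were next grouped in 35 lists, each gene represented by its brightest probe set. Over all 12393 genes, 25.5% were higher and 23.9% lower than the mean of the other stages, 2.59% were peaks and 3.57% dips, and the median difference was 0.10. The lists were chosen with earlier results of these data known, and counts are a description.

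**Figure D5:**
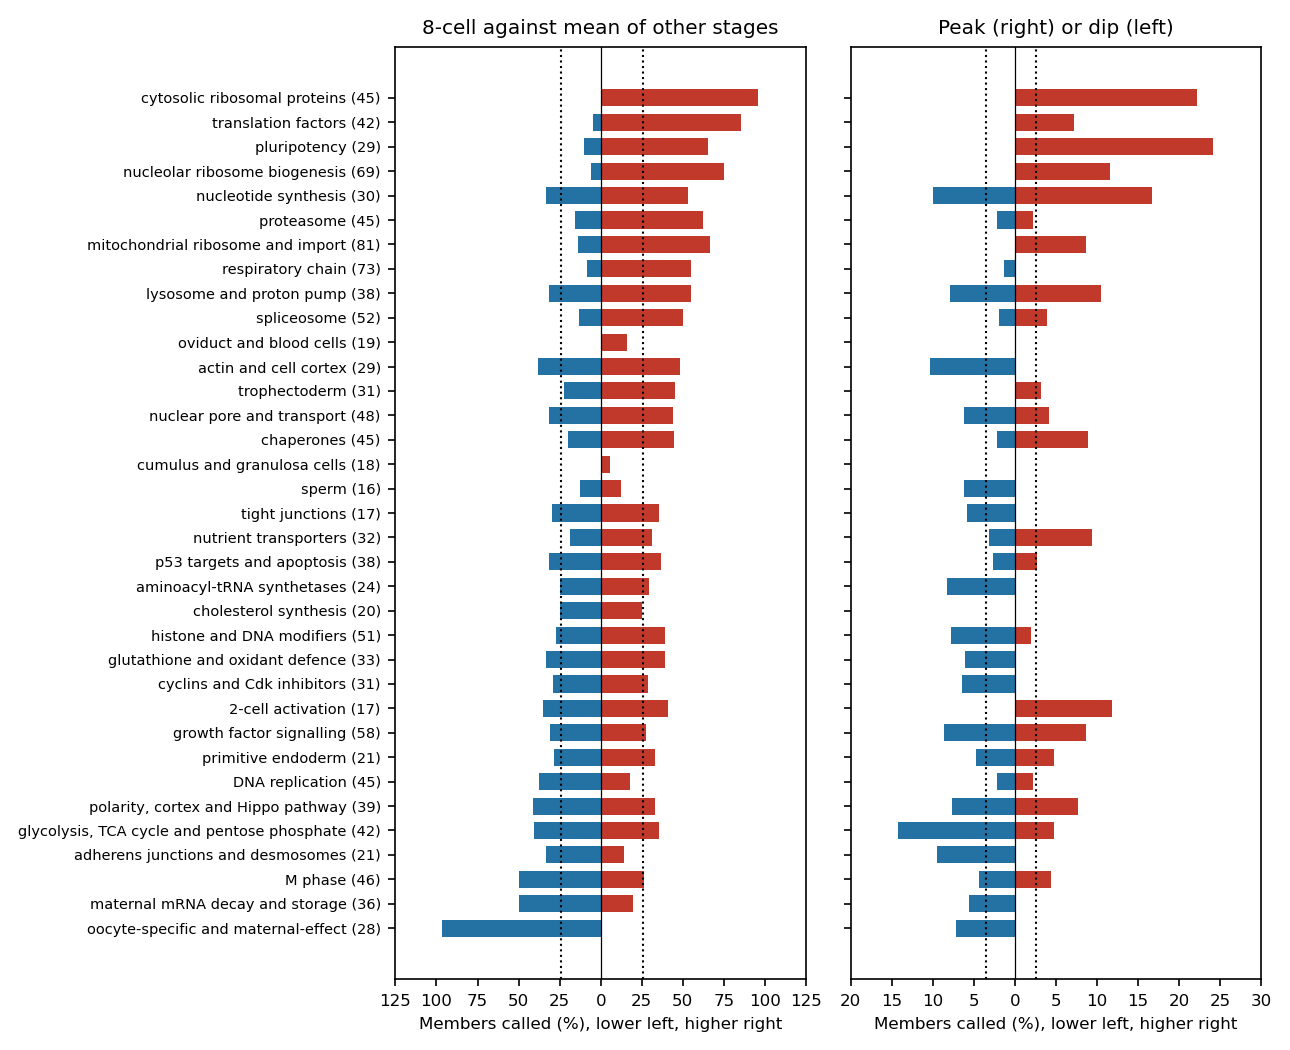
Percent of the measured members of each of 35 gene lists called higher or lower against the mean of the other stages, and called a peak or dip, with dotted lines at the percent over all 12393 genes. Ribosomal proteins have the largest share higher (43 of 45), and oocyte-specific genes the largest share lower (27 of 28).

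Genes for making ribosomes were high. Of 45 cytosolic ribosomal protein genes, 43 were higher and 0 lower, with a median difference of 2.29, and 39 were higher after scaling to the hybridization controls (median 1.43). Rps7, of the small subunit, read 14418, 14706.9, 10301 and 11535.4 at the 8-cell stage and 6646 ± 1092 in the blastocyst, the nearest. It was 1 of 10 ribosomal protein peaks, with Rpl27a. Of this list 2 genes were peaks under quantile normalization, 0 under median centring and 0 under the hybridization control scaling. The gap of Rps7 turned to −0.18 under the last. Rps19 and Rpl37a rose by 3.52 and 3.23 and were not called peaks.

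Of 69 nucleolar ribosome biogenesis genes, 52 were higher and 4 lower (median 0.92). The median was 0.06 under the hybridization control scaling, with 14 higher and 16 lower. Npm1, a histone chaperone of the nucleolus, read 10605.7, 12302.2, 11158.7 and 10097.5 against 2887.7 to 6920.1, and the RNA helicase Ddx21 was 1163 ± 391 against 553 ± 165 at the 2-cell stage. Both were peaks, as was Nhp2 of the box H/ACA particles, and Polr1c, shared by RNA polymerases I and III, rose by 3.16. Under the hybridization control scaling the gaps of Npm1 and Nhp2 turned to −0.06 and −0.30. The peak of Nhp2 was also not called under quantile normalization or median centring. Riok1 and Bms1, which act in small subunit assembly, fell by 3.15 and 1.39.

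Of 42 translation factors, 36 were higher and 2 lower (median 1.04, and 0.18 under the hybridization control scaling). Eif3a and Eif5 were peaks with gaps of 0.89 and 0.87, which turned to −0.23 and −0.13 under that scaling. Eif4h rose by 2.27 and Pabpc1, the cytoplasmic poly(A)-binding protein, by 2.39, and neither was called above the blastocyst.

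Promoters were read for the ribosome genes, because so many of them were high together. RefSeq start sites (GRCm38.p6) were searched on both strands from 250 bases before to 50 after the start for CCGGAAG, the core of many Ets-family sites, and for CACGTG, the E-box bound by Myc and by lysosomal regulators. Also searched were the TATA box TATAAA, the NF-Y box CCAAT, the CREB site TGACGTCA and the letters CACGCG. The motif CCGGAAG or its reverse complement was present in 42.6% of 47 windows of ribosomal protein genes, 39.1% of 69 of biogenesis genes, 17.8% of 343 of peak genes, 16.7% of 520 of dip genes and 14.0% of 12559 windows of genes on the array. CACGTG was present in 10.6%, 17.4%, 14.9%, 11.3% and 9.11% of the same sets. The letters CACGCG were present in 23.4% of the ribosomal protein windows, 34.8% of the ribosome biogenesis windows, 15.5% of the peak windows, 104 of 520 dip windows and 14.7% of the array's windows. In the same order the shares were 12.8%, 2 of 69 windows, 7.87%, 6.15% and 9.80% for TATAAA, 29.8%, 31.9%, 36.7%, 41.3% and 37.1% for CCAAT, and 6.38%, 1.45%, 3.50%, 2.50% and 2.52% for TGACGTCA. A match is a description of the letters, not of a bound site. Of 65 windows of 150 bases for 48 peaks named here, 12 held CCGGAAG or CACGTG. The share over all genes was not counted for windows of this length, so the 12 cannot be called many or few. Of those 12, 3 are shown, picked because they hold a match. No match was found in the windows of Rpl27a, Timm8a1, Timm22, Ctsz, Lamp2 or Ctsc, nor before a second start of Ctsa. The 150 bases before 3 starts are shown for a ribosomal protein, a mitochondrial import and a lysosomal peak, with the match in capitals: Rps7 at chr12:28635954-28636103 on the minus strand, Tomm22 at chr15:79670718-79670867 and Ctsa at chr2:164833623-164833772, both on the plus strand. In Tomm22 the 2 orientations of CCGGAAG overlap, and in Ctsa the capitals mark CACGTG.
Rps7: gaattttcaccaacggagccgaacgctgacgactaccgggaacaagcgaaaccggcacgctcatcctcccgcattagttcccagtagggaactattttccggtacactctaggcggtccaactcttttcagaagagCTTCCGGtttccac
Tomm22: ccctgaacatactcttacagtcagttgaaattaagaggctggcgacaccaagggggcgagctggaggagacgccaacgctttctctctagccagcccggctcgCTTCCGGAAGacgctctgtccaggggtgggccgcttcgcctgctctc
Ctsa: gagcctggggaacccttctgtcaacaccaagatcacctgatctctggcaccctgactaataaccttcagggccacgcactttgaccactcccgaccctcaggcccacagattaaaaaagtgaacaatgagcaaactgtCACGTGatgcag

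Of 81 genes of the mitochondrial ribosome and import machinery, 54 were higher and 11 lower, with 7 peaks and 0 dips. The median of 0.59 turned to −0.27 under the hybridization control scaling, with 20 higher and 22 lower. Tomm22, a receptor of the outer membrane translocase, was 1811 ± 361 against 692 ± 67.4 at the 2-cell stage (gap 1.36 ± 0.23, adjusted p = 3.58e-04). Tomm20 and Timm22 were peaks with gaps of 0.71 and 1.05, which turned to −0.0039 and −0.07 under the hybridization control scaling. The gap of Tomm20 turned to −0.30 under quantile normalization, and Timm22 was not called under median centring. Of 73 respiratory chain genes, 40 were higher and 6 lower, with 0 peaks (median 0.43, and −0.43 under the hybridization control scaling). Against the blastocyst, 53 of the 73 were lower and 0 higher (median −0.89), and the median against the oocyte was 0.0029.

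Carbohydrate metabolism held 15 higher and 17 lower genes of 42, with 2 peaks and 6 dips (median −0.09, and −0.95 under the hybridization control scaling). Hk1, a hexokinase, read 136.5, 174.1, 281 and 196.3 against at most 80.3 elsewhere. Aco1, which serves as aconitase and iron sensor, was 129 ± 47.5 against 425 ± 138 at the 1-cell stage (gap −1.64), and Fh1, fumarase, was 152 ± 31.6 against 355 ± 117 at the 2-cell stage (gap −1.13). Pkm, given above, was also among the 6 dips. Slc2a1, a glucose transporter, was a dip at 38, 23.5, 47.3 and 40.6 against 66.6 or more. The dip of Slc2a1 was not called without the second and the third 8-cell arrays (adjusted p = 0.0715).

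Of 32 nutrient transporters 10 were higher and 6 lower (4 and 16 under the hybridization control scaling), and besides Tfrc the peaks included Slc5a6, the biotin and pantothenate carrier (1324 ± 428). Slc15a2, a peptide carrier, fell by 2.48. Of 38 lysosome and proton pump genes, 21 were higher and 12 lower, with 4 peaks and 3 dips (median 0.42, and −0.44 under the hybridization control scaling). Lamp2, of the lysosomal membrane, read 1381.9, 1915.5, 1554.3 and 2041.4 against 57.8 to 844.1. Ctsa, the protective protein of 2 lysosomal glycosidases, was 1513 ± 379 against 495 ± 84.5 in the blastocyst, and Ctsc, a dipeptidyl peptidase, 5159 ± 812 against 2375 ± 441 at the 2-cell stage. Ctsc was not called under quantile normalization.

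Of 30 genes of nucleotide synthesis, 16 were higher and 10 lower (median 0.78, and −0.08 under the hybridization control scaling). Tyms, thymidylate synthase, was a peak at 80.8 ± 13.1 against 21.2 ± 9.80 in the blastocyst. Aprt, of purine salvage, was 2194 ± 163 against 1049 ± 77.3, with a gap that turned to −0.06 under the hybridization control scaling. Cmpk1, a pyrimidine kinase, and Shmt2, the mitochondrial serine hydroxymethyltransferase, were dips with gaps of −1.42 and −0.86. Of 33 genes of oxidant defence, 13 were higher and 11 lower (4 and 17 under the hybridization control scaling), and the 2 dips were Glrx and Prdx2, a peroxiredoxin at 218 ± 27.8 against 870 ± 39.4 in the blastocyst. The metallothioneins Mt1 and Mt2 rose by 3.73 and 3.40 and were not called peaks.

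Pluripotency genes gave 19 higher and 3 lower of 29, with 7 peaks and 0 dips (median 0.93, and 0.07 under the hybridization control scaling). Nr5a2, an orphan nuclear receptor, read 1252.5, 1250, 977.4 and 846.1 against 114.7 to 446.6 (gap 1.70 ± 0.20). Dppa2 read 5659.8, 7560.7, 6287.6 and 5741.8 against 317 to 2722.1. Neither gene's groups overlapped. Fbxo15, an F-box gene of embryonic stem cells, reached 12029 ± 2012 but was not called a peak under quantile normalization. Nanog, which marks the epiblast, was 325 ± 74.3, against 572 ± 230 in the blastocyst and under 10 on average at the 3 earlier stages. Tcl1 and Klf17, both abundant in the oocyte, fell by 4.14 and 1.18.

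Among 21 primitive endoderm genes, 7 were higher and 6 lower, and 1 and 12 under the hybridization control scaling. Gata6, its first-acting factor, read 1194.5, 1017.6, 1092.8 and 915.6, and 630 ± 90.4 in the blastocyst (gap 0.74 ± 0.17, adjusted p = 0.00741). The peak of Gata6 was not called under median centring or without the second and the third 8-cell arrays, and the gap turned to −0.38 under the hybridization control scaling. Lamb1, a laminin chain, was a dip at 103 ± 15.4 against 293 ± 55.8 at the 2-cell stage.

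Of 31 trophectoderm genes, 14 were higher and 7 lower, and 12 were above the 3 earlier stages and not called above the blastocyst, where 6.79% of all genes had that pattern. Against the blastocyst 24 of the 31 were lower (median −1.73). The median against the mean of the other stages was 0.33, and −0.53 under the hybridization control scaling, with 4 higher and 15 lower. Tfap2c, an AP-2 factor, read 694.3, 692.7, 839.9 and 1189.3 and was the 1 peak of the list (gap 0.94 ± 0.23). That call was lost without the fourth 8-cell array (adjusted p = 0.0507) or the fourth blastocyst array (0.0560), and under median centring (0.226). The gap turned to −0.18 under the hybridization control scaling. Cdx2, the trophectoderm master factor, was 131 ± 84.1, with 27, 161.5, 226.3 and 110.8 in the 4 arrays, and 449 ± 58.7 in the blastocyst.

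The keratins Krt18 and Krt8 were 395 ± 159 and 348 ± 90.3, against 5346 ± 688 and 4372 ± 290 in the blastocyst. Krt8 was called higher than the mean of the other stages by 0.62 ± 0.21, a call lost without the second (adjusted p = 0.0963) or the fourth (0.0557) 8-cell array, and it turned to −0.24 under the hybridization control scaling. Klf5, needed for the first lineage choice, and Aqp3, a water channel, were 749 ± 170 and 304 ± 43.5 and not called above the blastocyst. Gata3 and Elf5, later trophectoderm factors, were 13.5 ± 15.7 and 6.45 ± 0.806 against 232 ± 60.8 and 284 ± 103 in the blastocyst.

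In the polarity, cortex and Hippo list, 13 of 39 were higher and 16 lower, with 3 peaks and 3 dips (median −0.03, and −0.89 under the hybridization control scaling). Tead4, the DNA-binding partner of Yap, read 363.2, 307.7, 409.2 and 405.9 against 3.5 to 148.8 (gap 1.59 ± 0.25, adjusted p = 1.01e-04). Mob1b, a co-activator of the Lats kinases, was 183 ± 53.1 against 57.8 ± 13.3 in the blastocyst. Lats2, the kinase that phosphorylates Yap, was a peak at 367 ± 95.4 against 187 ± 16.5. The call of Lats2 was lost without the fourth 8-cell array (adjusted p = 0.0656) and under median centring (0.0930). Its gap turned to −0.22 under the hybridization control scaling.

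On the falling side, Rdx, radixin, which links actin to the membrane, was 172 ± 69.1 against 521 ± 99.7 in the blastocyst (gap −1.59). Mpp5, the Pals1 scaffold of the apical Crumbs complex, was 87.8 ± 21.8 against 162 ± 24.7. The dip of Mpp5 was lost without any 1 of 4 arrays, the second or the fourth 8-cell or the first or second blastocyst array (adjusted p = 0.0564 to 0.0818). Patj, another Crumbs complex scaffold, was a dip with a gap of −1.03.

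Junction and actin genes were mixed. Of 21 adherens junction and desmosome genes 3 were higher and 7 lower, and Cdh2, N-cadherin, read 40.5, 5.2, 41.2 and 15.6 against 62.5 or more in all others. Epcam rose by 1.12 and Nectin3 fell by 2.99. Of 17 tight junction genes 6 were higher and 5 lower, and Cldn7 and F11r rose by 2.03 and 2.62. Of 29 actin and cortex genes 14 were higher and 11 lower, with 0 peaks and 3 dips. Under the hybridization control scaling the higher and lower counts of these 3 lists were 1 and 17, 3 and 10, and 3 and 15. The dips Wasl and Actr3 act in branched actin assembly and had gaps of −1.36 and −1.12. Cttn, cortactin, and Lasp1 rose by 2.92 and 3.17, and Vil1, villin, fell by 3.35.

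Of 58 growth factor signalling genes, 16 were higher and 18 lower, with 5 peaks and 5 dips (median 0.10, and −0.76 under the hybridization control scaling). Id3, a target of BMP signals, read 793.4, 606, 632.5 and 753 against 5.2 to 198.2. Fgfr3 was a peak at 243 ± 32.9 against 51.0 ± 9.87 in the blastocyst. Il6st, the shared receptor of the LIF family, and Jak1, its kinase, were dips at 15.2 ± 14.2 and 119 ± 19.3, with gaps of −1.49 and −1.35. Socs3, an inhibitor of the same pathway, rose by 3.00 and stood at 1528 ± 681, with 1375 ± 571 at the 2-cell stage. Spry4, an FGF inhibitor, fell by 3.37.

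Of 51 histone and DNA modifiers, 20 were higher and 14 lower, with 1 peak and 4 dips (median 0.15, and −0.71 under the hybridization control scaling). Uhrf1, which brings Dnmt1 to hemimethylated DNA, read 62.2, 71.5, 62.8 and 89.7 against 370.3 to 2007.8 (gap −2.42 ± 0.18, adjusted p = 2.68e-09). Dnmt1, the maintenance methyltransferase, was 145 ± 17.4 against 240 ± 40.6 in the blastocyst, a dip lost without the third 8-cell array (adjusted p = 0.0764) or the second blastocyst array (0.0842). Dnmt3l, a methyltransferase cofactor, was a dip at 148.4, 148.4, 126.8 and 111.6. Hdac1, a histone deacetylase, was the peak, at 1660 ± 116 against 835 ± 125 at the 2-cell stage.

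Of 45 DNA replication genes 8 were higher and 17 lower, and the origin proteins Cdc6 and Orc5 moved in opposite directions, with gaps of 1.24 and −1.41. Of 46 M phase genes 12 were higher and 23 lower (median −0.34, and −1.20 under the hybridization control scaling). Ube2c, an enzyme of the anaphase-promoting complex, was a peak at 1299 ± 360, with a gap that turned to −0.18 under the hybridization control scaling. The peak of Ube2c was also not called under median centring. Cenpf and Kif2c, of the kinetochore, were dips with gaps of −1.04 and −0.73. Cdk1 rose by 1.28 and was at the level of the 2-cell stage, 2840 ± 366 against 2683 ± 153. Ccng2, a cyclin gene, was a dip at 13.4 ± 6.41. Mcl1, which blocks apoptosis, was a peak at 1918 ± 455 whose gap turned to −0.06 under the hybridization control scaling.

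Several calls were lost when single arrays were left out. Among the peaks given below, Cdc20, Hspa8, Tra2a and Psma6 were also not called under quantile normalization or under median centring. Srsf9 and Pgam1 were not called under median centring. Cdc20, an activator of the anaphase-promoting complex, had a gap of 0.57 ± 0.15 and lost its peak without the third or the fourth 1-cell array or the first or the fourth 8-cell array (adjusted p = 0.0509 to 0.0733). The chaperone Hspa8 (gap 0.97) lost its peak without the first 8-cell or the third or the fourth blastocyst array (0.0616 to 0.0679), and the dip of Cdkn1b, a Cdk inhibitor (gap −1.15), was lost without the second 8-cell array (0.0510). The splicing factors Srsf9 and Tra2a (gaps 0.69 and 0.70) each lost the peak without any 1 of 5 arrays. For Srsf9 these were the first and the fourth 8-cell and the first, second and the fourth blastocyst arrays (0.0818 to 0.111). For Tra2a they were the second, the third and the fourth 8-cell and the first and the third blastocyst arrays (0.0647 to 0.137).

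Rbl1, a relative of the retinoblastoma protein, lost its dip without the fourth 8-cell or the first or the fourth blastocyst array (adjusted p = 0.0506 to 0.0678). Ndufab1, of respiratory complex I, lost its dip without the first 2-cell or the third or the fourth 8-cell array (0.118 to 0.129). Psma6, a proteasome subunit, lost its peak without any 1 of 12 arrays, all 4 8-cell arrays among them (0.0542 to 0.167), and Pgam1, of glycolysis, without any 1 of 13, again with all 4 8-cell arrays (0.0502 to 0.156). The others for Psma6 were the second 1-cell, second and the fourth 2-cell, second and the third oocyte and first, the third and the fourth blastocyst arrays. For Pgam1 they were the third 1-cell, second, the third and the fourth 2-cell, first and the fourth oocyte and first, second and the third blastocyst arrays.

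The proteasome list, Psma6 included, held 28 higher and 7 lower genes of 45 (median 0.69, and −0.17 under the hybridization control scaling), with Psme4, a proteasome activator, a dip at 237 ± 56.7. Of 52 spliceosome genes 26 were higher and 7 lower, and of 45 chaperones 20 were higher and 9 lower. Under the hybridization control scaling these became 9 higher and 22 lower (median −0.44) and 8 higher and 23 lower (median −0.57). Dnaja1 and Stip1, co-chaperones of Hsp70 and Hsp90, were peaks with gaps of 1.06 and 1.07. Neither was called under median centring. Dnaja1 was also not called under quantile normalization or without the second and the third 8-cell arrays. Both gaps turned under the hybridization control scaling, to −0.23 and −0.05. Of 48 nuclear pore and transport genes 21 were higher and 15 lower, and 8 and 25 under that scaling. Ipo7, an importin, was a peak at 2452 ± 509 whose gap turned to −0.08 under that scaling, and Nup50 a dip at 104 ± 51.6. The peak of Ipo7 was also not called under median centring.

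Oocyte transcripts were low. Of 28 oocyte-specific and maternal-effect genes, 0 were higher and 27 lower (median −3.08, and −3.94 under the hybridization control scaling), and 23 were below the 3 earlier stages and not called below the blastocyst, a pattern of 9.63% of all genes. Rfpl4 fell by 5.40 to 4.83 ± 3.52, Btg4, which recruits the deadenylase to maternal mRNA, by 4.40, the growth factor Gdf9 by 3.16 and Zp3, of the zona pellucida, by 2.63. Of 36 genes of maternal mRNA decay and storage, 7 were higher and 18 lower. Of 17 genes of 2-cell activation 7 were higher and 6 lower (median 0.10, −0.02 under quantile normalization and −0.76 under the hybridization control scaling), and Dppa2 and Hspa8 were 8-cell peaks. Against the 2-cell stage itself 3 were higher and 10 lower (median −1.75). Its markers Zfp352 and Tcstv3 were 46.2 ± 22.5 and 29.9 ± 13.1, against 1994 ± 365 and 538 ± 238 at the 2-cell stage. The lower call of Zfp352 against the mean of the other stages was lost without the second (adjusted p = 0.0681) or the fourth (0.0728) 8-cell array. The stage label was checked by these levels and by Nanog, Gata6, Krt8, Krt18 and Tfap2c, whose values are given above.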

How the data were processed

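Total RNA from 4 samples of each of 5 stages was measured on 20 Affymetrix MOE430A arrays after 2 rounds of in vitro transcription, per the labels' protocols. The authors deposited linear intensity values scaled to a common trimmed mean (150.05 to 150.08 with 2% trimmed). The labels state neither the software nor the background correction. Of 22690 probe sets, 64 controls were left out, and 20380 of the rest had 1 symbol (12393 genes). No 2 arrays of 190 pairs were identical.

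Values were transformed as log2(intensity + 12.15) without filter and fitted in 1 model of 5 stages with limma 3.58.1 in R 4.3.3 (eBayes with intensity trend, 15 residual degrees of freedom). P-values are two-sided and Benjamini-Hochberg adjusted over all 22626 probe sets, with a threshold of 0.05. For a peak or dip, the largest of 4 pairwise p-values was adjusted. Several probe sets of a gene were represented by that of highest mean log2 value. Figures were drawn with matplotlib 3.10.9.

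Named genes were the 12 largest peaks and dips, the 10 largest rises and falls, and up to 2 peaks, dips, rises and falls per list. The 12 and the 10 were taken only from genes without overlap of arrays. Their higher side also had to be above the pooled median intensity. Some were left out for length, and 1 is not reported here. The comparison, members and lists were chosen with earlier results of these data known. Genes outside the rule, in the paragraph on other cells and in the closing section, were chosen after their values were seen. Alternatives covered scaling, added constant, filter, model, probe set choice, each array left out and the replicate number as a block. The number of arrays limits the precision.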

Additional observations from a re-analysis of the deposited data

Results flagged for a closer look

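Within a stage of 4 arrays, single arrays stood apart in 9 of 160 groups examined, and chance gives about 1 in 20. Tfrc read 105.1 in the first 1-cell array, with the next at 79.7. Ctsz read 8.7 in the second 1-cell array and 1167 in the fourth 8-cell array, where the next was 629.8. Tbx3 read 266.3 in the third 2-cell array. Timd2 read 1797.1 in the first blastocyst array. Errfi1 read 989.3 in the first oocyte array and 91.2, the lowest, in the third 8-cell array. Glrx read 697.6 in the fourth blastocyst array. The Gapdh 3′/5′ ratio was 2.82, the lowest, in the second oocyte array. The causes were not tested.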

How the results depend on the processing

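The scaling of the arrays moved the counts most. Scaled to the hybridization controls, 1333 probe sets were higher, 13136 lower, 539 shared with the blastocyst, 39 peaks and 2082 dips. Median centring gave 375 peaks. With 1 probe set per gene there were 3192 higher, 2984 lower, 847 shared and 331 peaks, from fewer features. Requiring a difference of at least 1 gave 2457 higher, 2605 lower, 312 peaks and 401 dips. Separate 2-stage fits gave 447 dips, and adjusting within each pairwise contrast 1098 peaks. Leaving out the second and the third 8-cell arrays, chosen after seeing the data, gave 399 peaks from fewer samples, and 18 of 145 genes examined lost their call. Leaving out 1 array at a time gave 4912 to 6277 higher, 4436 to 4794 lower, 1434 to 1735 shared, 503 to 663 peaks and 585 to 687 dips, and 16 of 145 genes lost their call without some array. Deviations from the stage means correlated at −0.136 to 0.157 between same-numbered arrays of different stages. The median was 0.0125, against −0.0112 between arrays with different numbers. The labels give no pairing, and these values cannot show whether same-numbered samples were handled together. The replicate block gave 5820 higher, 4777 lower, 1610 shared, 616 peaks and 668 dips, and the peaks of Psma6 and Pgam1 were not called.

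Across 32 alternatives, 4456 of 4639 values of the 145 genes kept direction and call, 157 kept direction and lost the call, and 26 turned direction. Of the 26, 25 turned under the hybridization control scaling: Nme2 −0.0749, Pramel7 −0.0649, Rps7 −0.18, Npm1 −0.0606, Eif3a −0.23, Eif5 −0.13, Tomm20 −0.0039, Dnaja1 −0.23, Stip1 −0.0452, Gata6 −0.38, Tfap2c −0.18, Krt8 −0.24, Lats2 −0.22, Aprt −0.0630, Ube2c −0.18, Hspa8 −0.15, Cdc20 −0.49, Srsf9 −0.43, Tra2a −0.42, Psma6 −0.48, Ipo7 −0.0803, Nhp2 −0.30, Timm22 −0.0663, Pgam1 −0.51 and Mcl1 −0.0605. Tomm20 turned to −0.30 under quantile normalization. Another 29 genes lost the call under the hybridization control scaling, 18 under median centring and 15 under quantile normalization. The cause was not tested. Dim probe sets, near the bottom of the scale, limit the folds.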

Other observations

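Further gene groups were examined that were chosen after their values were seen, so their counts are descriptions. Autophagy genes were 16 higher and 3 lower of 22, with 7 peaks and 0 dips, where 2.59% of all genes were peaks. Map1lc3a, which coats autophagosome membranes, was 687 ± 98.9 (SD, n = 4) at the 8-cell stage against 190 ± 48.2 at the 2-cell stage, and Ulk1, the initiating kinase, 906 ± 233 against 296 ± 74.0. The median difference of 1.01 was 0.15 under the hybridization control scaling. All 6 measured small nucleolar RNA host genes were higher, and 4 were peaks. Gas5 was 2023 ± 398 against 984 ± 88.6 in the blastocyst, and Snhg5 1011 ± 111 against 424 ± 34.7.

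Of 17 genes of choline, betaine and phospholipid synthesis, 9 were higher and 6 lower, with 6 peaks and 2 dips. Beside Bhmt, Bhmt2 was 615 ± 230 against 148 ± 38.7 at the 2-cell stage and Pemt, which methylates phosphatidylethanolamine, 933 ± 139 against 276 ± 49.4. Chdh, which makes betaine aldehyde from choline, was a dip at 35.3 ± 21.0. Of 8 genes of serine and glycine metabolism 5 were higher and 3 lower, with peaks in Psat1, Gldc and Phgdh. Of 17 aldehyde dehydrogenase genes 2 were higher and 7 lower, with 5 dips, and Aldh9a1 was 86.1 ± 21.7 against 322 ± 79.3 in the blastocyst. Of 50 Rab GTPase genes 11 were higher and 20 lower. Rab5a, of early endosomes, was a peak at 2427 ± 557, and Rab4a, of recycling endosomes, was 1 of 7 dips at 2.60 ± 0.337 against 46.6 ± 12.1 in the blastocyst.

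Some transcripts were far higher in 1 8-cell array than in the other 3. Probe sets at least 4-fold above the other 3 arrays numbered 5, 8, 9 and 1 in the first to the fourth, and 0 of these were peaks or dips. In the second array Ltf, lactotransferrin, read 926.1 (13.4 to 48.4 in the other 3), Wfdc18 1169.4 (52.5 to 140.6) and Dcpp1 749.3 (2.2 to 7.1). The 2-cell arrays read 154.8 to 372.5 for Ltf and 173.3 to 406.3 for Wfdc18. In the third array Hsd3b1, a steroid-making enzyme on the cumulus and granulosa list, read 342.8 (20.7 to 46.8) and Akr1cl 506.7 (39.7 to 82.1). The cause was not tested.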
